A study of Sus scrofa with 35 samples.

Results

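The 7 subunits of respiratory complex I that are encoded by mitochondrial DNA (ND1, ND2, ND3, ND4, ND4L, ND5 and ND6), 7 of 11405 gene symbols on the array, were followed through every pig probe for them on this porcine expression array. Members were the non-control probes whose gene name was that of a subunit, or whose description named the pig subunit, which gave 56 of 60305 probes. They were 20 probes for ND1, 15 for ND2, 12 for ND4, 3 each for ND3 and ND5, 2 for ND6 and 1 for ND4L, of which 53 were matched by gene name and 3 by description alone. Another 84 probes matched the wording, but their descriptions named another species, and these were set aside. A probe is named here by its subunit and by its start in the target transcript as the array files give it (ND2-899), or by its own name where no start is given (ND6-O2495). ND1 and ND2 had drawn attention because they were among the probes that set F1 pigs apart from both parental breeds in these same data, so all values of F1 against the parental breeds are given as a description, without a test.

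RNA came from the back muscle longissimus dorsi. The pigs were castrated males and were Creole (a local Caribbean breed), Large White or F1, the cross of both, slaughtered at thermoneutrality (TN) or after heat stress (HS). There were 6 arrays of each breed at each temperature, except F1 under HS with 5, hence 35 in all, each with the RNA of 1 muscle sample. TN is labelled as 24 °C and HS as 30 °C, but 32 °C for 5 days is the challenge stated in the protocol of growth and in the methods. The methods put the entry into the rooms at 11 weeks of age, describe each breed as a few groups of littermates, and had the TN pigs slaughtered first and the HS pigs some days later from different pens, so that temperature, day of slaughter, age and pen cannot be told apart. Neither the labels nor the methods used here name the breed of the dams of the F1 pigs. Replicate numbers name the arrays in order of deposition, and each array is taken as 1 pig although littermates share parents.

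Complex I (NADH:ubiquinone oxidoreductase) passes electrons from NADH to ubiquinone and pumps protons across the inner mitochondrial membrane. Its peripheral arm, built from nuclear-encoded subunits, holds the NADH site and the iron-sulphur clusters, and its membrane arm is built around the mtDNA-encoded subunits: ND2, ND4 and ND5 are the antiporter-like subunits, ND1 lies at the junction with the peripheral arm near the ubiquinone site, and ND3, ND4L and ND6 lie between them. Mitochondrial genes are transcribed as long precursors of either strand that are then cut. ND6 is the subunit gene of this set that is read from the other strand, ND4L and ND4 overlap on 1 mRNA, and mtDNA is inherited through the dam. Skeletal muscle carries a great deal of these transcripts.

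The probes are 60 bases long and many of them overlap, which lets nearly identical sequences be compared on the same arrays. The lines below hold 4 overlapping pairs, with capitals for bases that differ from the overlapping partner or have no counterpart in it, then the ND4L probe and both ND6 probes, which carry the results on heat stress and strand. All are written 5′ to 3′ as in the array files.
ND2-899: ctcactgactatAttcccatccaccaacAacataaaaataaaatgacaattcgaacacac
ND2-903: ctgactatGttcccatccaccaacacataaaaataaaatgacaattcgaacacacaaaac
ND1-393: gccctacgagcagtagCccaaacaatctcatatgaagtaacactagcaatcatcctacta
ND1-410: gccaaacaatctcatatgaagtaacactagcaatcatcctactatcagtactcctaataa
ND1-678: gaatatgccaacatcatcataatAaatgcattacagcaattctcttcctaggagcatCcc
ND1-683: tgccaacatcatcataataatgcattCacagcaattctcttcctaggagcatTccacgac
ND4-1107 (A_72_P725193): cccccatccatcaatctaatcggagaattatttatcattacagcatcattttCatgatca
ND4-1107 (A_72_P731718): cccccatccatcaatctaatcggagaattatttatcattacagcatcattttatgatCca
ND4L-237: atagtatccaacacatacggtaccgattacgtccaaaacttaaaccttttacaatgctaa
ND6-417: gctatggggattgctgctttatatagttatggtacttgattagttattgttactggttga
ND6-O2495: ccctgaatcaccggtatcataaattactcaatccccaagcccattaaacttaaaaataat
ND2-899 and ND2-903 shared 54 of 56 aligned positions, with the substitution A13G, counted from the 5′ end of ND2-899, and 1 base without a counterpart. ND1-678 and ND1-683 shared 53 of 56, with C58T counted from the 5′ end of ND1-678 and 2 bases without a counterpart. ND1-393 and ND1-410 shared 44 of 45 and the ND4-1107 probes 59 of 61, without a substitution. ND6-417 holds 16 G and 5 C, while ND6-O2495 holds 4 G and 17 C. Read with the mitochondrial code, ND6-417 had a reading frame without an inner stop only as printed (1 against 0 in reverse complement). ND4-O5353 had such frames only in reverse complement (2 against 0 as printed), and ND6-O2495 had 1 each way. The probes were not placed on a pig mitochondrial sequence, so strand is left unsettled here. Values of ND6-O2495 are therefore those of a probe named for ND6 whose strand was not settled, and the same holds for ND4-O5353, which has 18 G and 8 C. ND6-O2495 nevertheless stands for ND6 below as its brightest kept probe, and ND4-O5353 is counted among the ND4 probes. In all, 35 pairs of members overlapped, 33 on the same strand. The members are therefore not independent measures of their genes.

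Levels are quantile-normalised log2 median pixel intensities. A probe was kept if some group had at least 75% of its arrays well above background for it, which held for 55 of 56 members and 41517 probes in all. The member that was not kept, ND2-O13734, lies on the strand opposite to ND2-899 and was well above background on 4 arrays. Of the kept members, ND2-367 and ND4-1207, both dim, passed through an F1 group alone, ND2-367 with all 5 F1 HS arrays well above background and at most 2 of 6 in any parental group. Of the members, 53 were well above background on all 35 arrays, 45 had a mean above 15, and 40 ranked by median among the 1000 brightest of the kept probes, and no spot was saturated. Muscle markers such as ACTA1 (mean 19.37) and CKM (19.27), skeletal actin and muscle creatine kinase, were bright on these arrays of muscle RNA. The share of probes well above background on an array ran from 58.4% to 75.9%. The 75th percentile of the unnormalised log2 intensity, a measure of array brightness, was 9.24 ± 0.24 (SD, n = 17) on HS arrays and 9.05 ± 0.17 (SD, n = 18) on TN arrays, so brightness moved with temperature before normalisation.

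The brightest kept probe of each subunit gave its level in the 6 groups. In ND1-860, from the subunit near the ubiquinone site, the order ran from F1 HS (18.35 ± 0.08, SD, n = 5) and F1 TN (18.30 ± 0.08, n = 6) through Large White TN (18.24 ± 0.10), Creole TN (18.22 ± 0.10) and Creole HS (18.19 ± 0.08) to Large White HS (18.18 ± 0.14), with n = 6 in each parental group here and below. Neighbours in that order differed by less than 1 SD in ND1-860. In ND2-836, from an antiporter-like subunit, F1 TN (17.34 ± 0.09) and F1 HS (17.31 ± 0.13) were again first, followed by Large White TN (17.16 ± 0.26), Creole TN (16.87 ± 0.35), Large White HS (16.87 ± 0.29) and Creole HS (16.65 ± 0.24). Within each parental breed the TN mean of ND2-836 was above the HS mean, and the TN and HS ranges overlapped. ND3-283 had the same leaders, with F1 HS at 17.81 ± 0.12 and F1 TN at 17.78 ± 0.08, and then Large White TN at 17.60 ± 0.34, Creole TN at 17.59 ± 0.20, Creole HS at 17.47 ± 0.14 and Large White HS at 17.41 ± 0.24.

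The order differed in the overlapping genes ND4L and ND4. ND4L-237 was highest in Creole TN (16.07 ± 0.12) and Large White TN (16.02 ± 0.24), intermediate in F1 TN (15.90 ± 0.10) and F1 HS (15.78 ± 0.24), and lowest in Creole HS (15.73 ± 0.15) and Large White HS (15.56 ± 0.11). All 6 Creole TN arrays (15.94 to 16.27) lay above all 6 Creole HS arrays (15.46 to 15.85), whereas the Large White ranges of ND4L-237 overlapped, 15.71 to 16.33 in TN and 15.47 to 15.75 in HS. ND4-1037 ran from Creole TN and Large White TN (17.84 ± 0.08 and 17.84 ± 0.14) through F1 HS (17.68 ± 0.19), F1 TN (17.67 ± 0.08) and Creole HS (17.66 ± 0.15) to Large White HS (17.58 ± 0.11). In both genes the 2 parental TN groups led and F1 stood between them and the parental HS groups.

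In ND5-O7769 and ND6-O2495 the F1 groups led again. ND5, the outermost antiporter-like subunit, was at 16.30 ± 0.17 in F1 TN, 16.24 ± 0.25 in F1 HS, 16.19 ± 0.37 in Large White TN and 16.05 ± 0.26 in Creole TN, and at 15.86 in both parental HS groups (SD 0.31 in Large White and 0.21 in Creole). ND6-O2495 was at 16.17 ± 0.09 in F1 TN and 16.04 ± 0.17 in F1 HS, followed by Large White TN (15.88 ± 0.35), Creole TN (15.62 ± 0.41), Large White HS (15.42 ± 0.55) and Creole HS (15.39 ± 0.30). In both probes, neighbours in the order differed by less than the larger SD of the pair. Since RNA came from whole muscle, fewer mitochondria-rich cells and less RNA per cell cannot be told apart in any of these values.

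**Figure D1:**
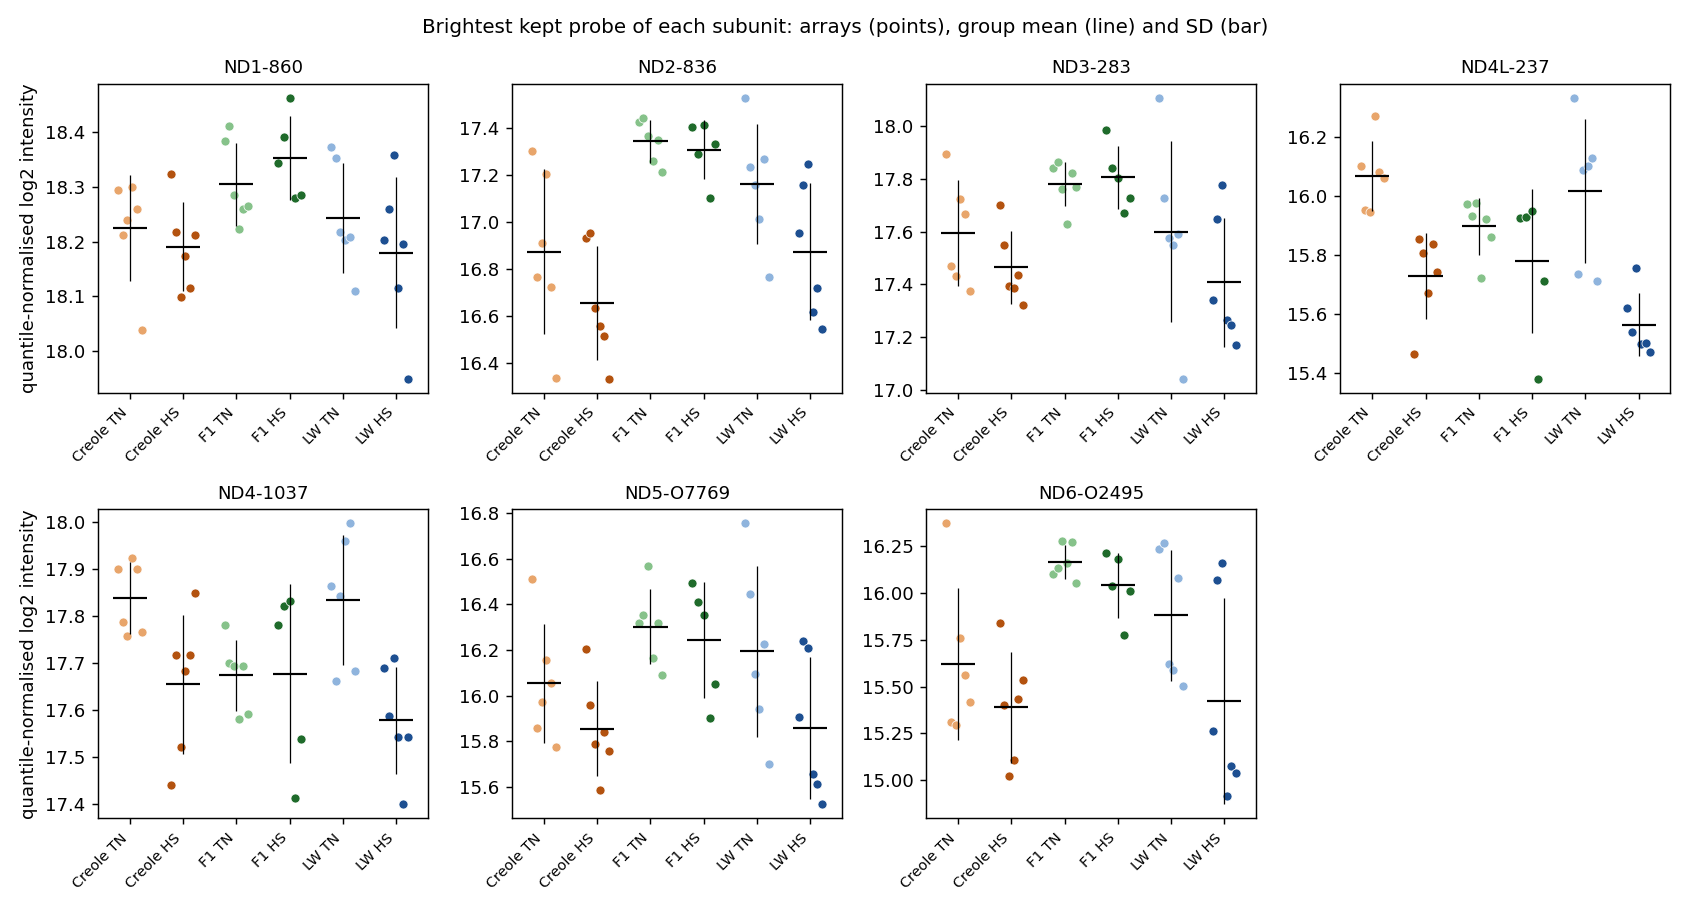
Level of the brightest kept probe of each subunit on every array (points; vertical axis, quantile-normalised log2 intensity, a different range in each panel), with the group mean (horizontal line) and SD (vertical bar) for Creole, F1 and Large White (LW) pigs at thermoneutrality (TN) or heat stress (HS). The F1 arrays are high and close together in ND2-836 and ND6-O2495, while ND4L-237 and ND4-1037 are highest in the parental TN groups, at means of 16.07 and 16.02 for ND4L-237.

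The largest differences between F1 and the parental breeds were in ND2 and in the first part of ND1. ND2-899 ran in F1 TN from 16.49 over a median of 16.70 to 16.82 and read 16.51, 16.47, 16.53, 16.67 and 16.65 on the 5 F1 HS arrays. In the parental groups its lowest, median and highest arrays were at 12.56, 13.61 and 16.50 in Creole TN, at 12.75, 13.73 and 16.11 in Creole HS, at 12.68, 14.17 and 16.33 in Large White TN, and at 12.71, 13.73 and 16.32 in Large White HS. Each parental group thus spanned more than 3 log2 units, and the highest parental array, Creole TN 1, lay within the F1 range. The F1 mean of ND2-899 was above the midpoint of Creole and Large White by 2.45 (SE 0.40, limma), a fold of 5.47, by 2.48 (SE 0.56) on TN arrays and by 2.42 (SE 0.60) on HS arrays. Against Creole the difference was 2.71 and against Large White 2.19 (SE 0.46 for each).

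Overlapping probes gave different sizes of that difference. ND2-903, which shares 54 of 56 aligned positions with ND2-899, was 1.09 above the midpoint (SE 0.17), with F1 arrays between 17.36 and 17.58 and parental arrays between 15.67 and 17.44. ND1-410 was 1.69 above it (SE 0.32), with 16.23, 16.22, 16.12, 15.85 and 16.08 on the F1 HS arrays, 16.05 to 16.26 in F1 TN, and parental arrays from 12.97 to 16.60, and its overlapping partner ND1-393 was 0.89 above it (SE 0.17). For ND1-678 and ND1-683 the signs were opposite, 0.40 (SE 0.09) and -0.19 (SE 0.07), although 53 of 56 aligned positions were identical. The near-identical ND4-1107 probes differed from the midpoint alike, by -0.05 and -0.06 (SE 0.06 each).

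**Figure D2:**
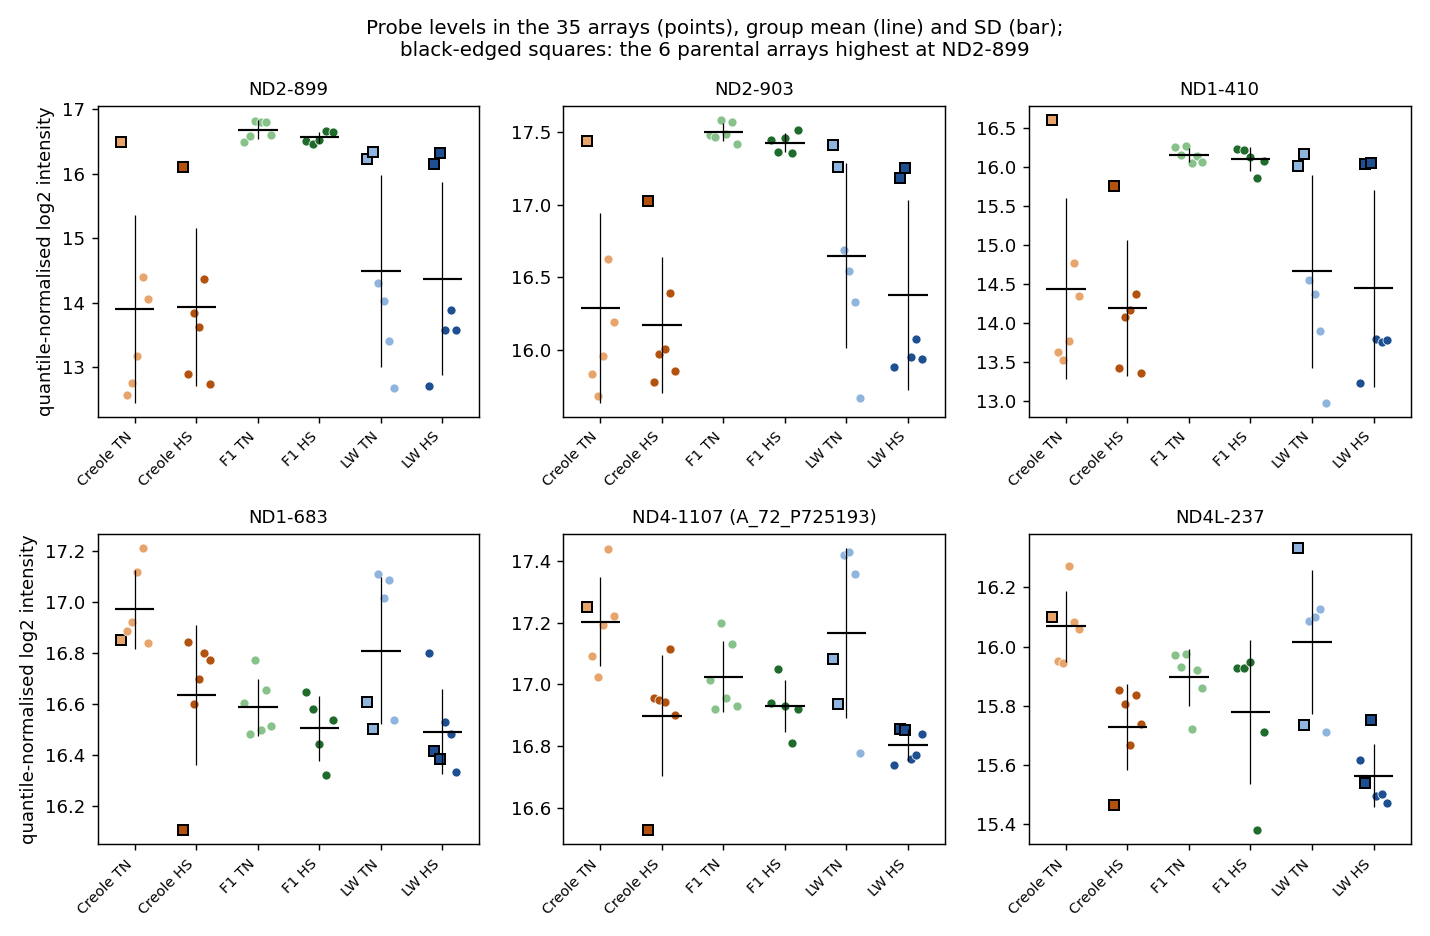
Level on every array (vertical axis, quantile-normalised log2 intensity, a different range in each panel) for 6 probes, by breed and temperature, with group mean (line) and SD (bar); the 6 black-edged squares are the parental arrays that were highest at ND2-899. In ND2-899 and ND1-410 these 6 arrays lie at or near the F1 level and the other 18 parental arrays below it, in ND1-683 they do not lead, and ND4L-237 separates Creole TN from Creole HS.

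Over the 55 kept members, 45 were above the parental midpoint and 10 below it, where 51.5% of all kept probes were below, and the median difference was 0.37 against -0.0035 over all kept probes. At least 1 log2 unit was reached by 10 members, all of ND1 and ND2, beside 28 of 41517 kept probes (0.0674%), from which nothing is read since these genes were chosen on this contrast. Without the 2 members kept through F1 alone, 43 of 53 were above the midpoint. For ND2 this left 13 probes, from 0.39 to 2.45 with a median of 1.09, all above the midpoint, and ND2-367 itself was at 0.75. In ND1 the 4 probes that start between 68 and 410 were between 0.89 and 1.69, and the other 16 between -0.19 and 0.64. These 4 were also the dimmest ND1 probes, with mean levels from 13.57 to 15.93 against 15.96 to 18.25 for the other 16. Position and brightness cannot be told apart there. ND3 gave -0.17 (ND3-O2102), 0.48 and 0.27, ND5 from 0.28 to 0.50, and ND4L -0.01 (SE 0.07). The 12 ND4 probes ran from -0.17 to 0.25. The ND6 probes, of opposite composition, were on opposite sides at 0.52 (ND6-O2495, SE 0.12) and -0.27 (ND6-417, SE 0.10). The members just inside and just outside 1 log2 unit were ND2-903 and ND2-967 (1.09 each) and ND1-393 (0.89).

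**Figure D3:**
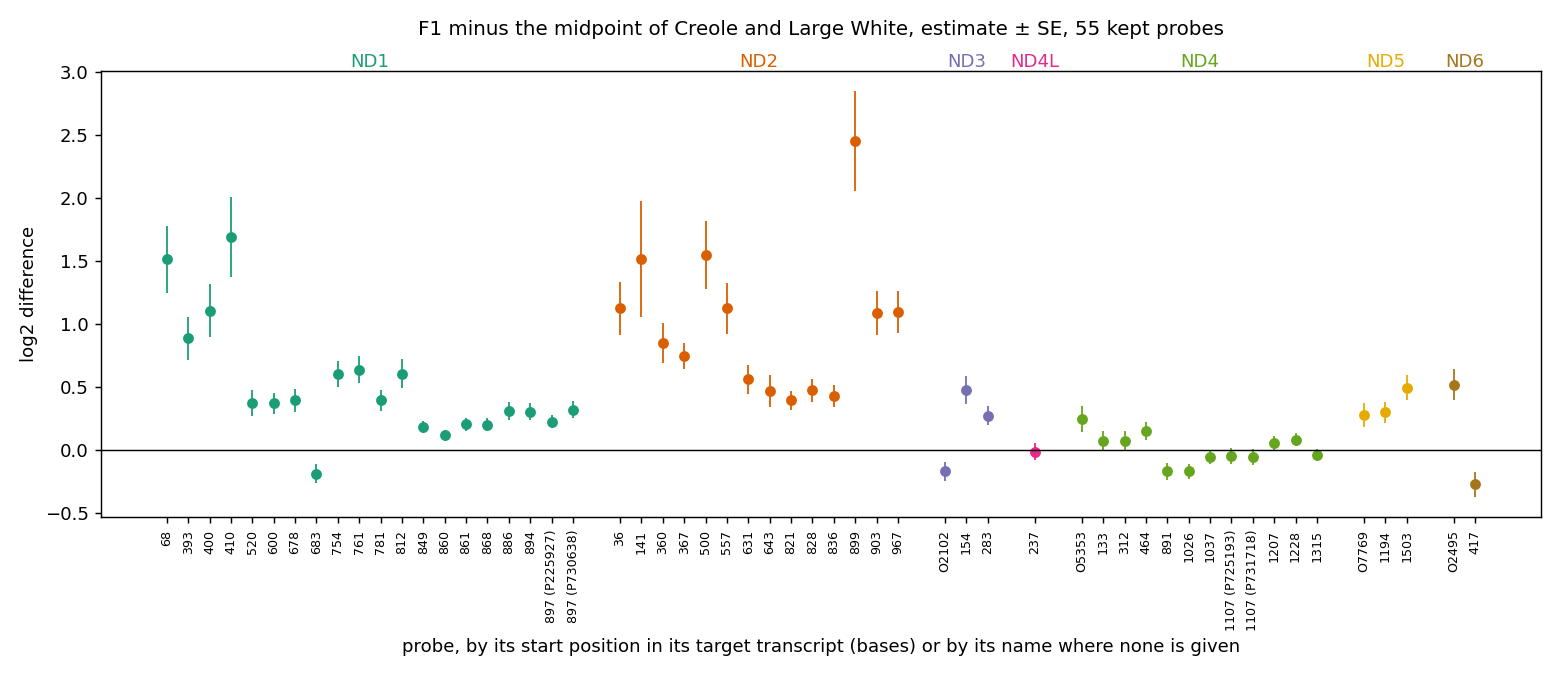
Difference of F1 from the midpoint of Creole and Large White (vertical axis, log2; points, limma estimate; bars, SE) for the 55 kept probes, ordered by subunit and by start within the transcript (horizontal axis). The values are highest in ND2 (up to 2.45) and at the start of ND1 (up to 1.69), and those of ND4 and ND4L lie near 0, between -0.17 and 0.25.

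The F1 arrays were also closer to each other than the parental arrays. The ratio of the pooled within-group SD of the parental arrays to that of the F1 arrays had a median of 2.42 over the kept members and of 1.14 over all kept probes, and it reached 2 in 33 of 55 members and in 4.82% of all kept probes. It was 11.8 in ND2-899 (SD 1.42 in the parental groups and 0.12 in F1), 9.09 in ND1-410 and 9.45 in ND2-903, but 0.88 in ND4L-237 and 0.84 in ND4-1037. The 33 members with a ratio of at least 2 were all among the 53 not kept through F1 alone and included 13 of the 14 ND2 probes, the exception being ND2-367 with a ratio of 0.72.

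The wide spread followed the same parental arrays from probe to probe. At ND2-899 the 6 highest of the 24 parental arrays were Creole TN 1 (16.50), Creole HS 1 (16.11), Large White TN 1 (16.22) and TN 2 (16.33), and Large White HS 2 (16.15) and HS 3 (16.32), and the next array, Creole TN 5, was at 14.40, a gap of 1.71. Both breeds and both temperatures were among them. The same 6 arrays were the highest parental arrays in 15 of the 55 kept members (27.3%), 7 of ND1 and 8 of ND2, beside 0.0771% of 41482 kept probes with a value on every array. These 15 include ND1-897 (A_72_P730638), where the sixth place was tied with another array, and ND2-367, which was near background on parental arrays, and without both there were 13. ND2-899, by which the 6 arrays were chosen, meets the rule by construction and is counted in the 15, the 8 and the 13. At least 5 of the 6 were among the 6 highest in 34 members, ND2-899 included, beside 0.444% of those probes. Both shares over the kept probes count the members too. With members and probes of other mtDNA genes left out, the share led by all 6 arrays was 0.00967% (4 of 41351). In 6 members none of these arrays was among the highest 6, namely ND1-683, ND3-O2102, ND4-891, ND4-1026, ND4-1315 and ND6-417. All of this was noticed after the values had been seen and is a description of these arrays.

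The 6 arrays were not spread evenly over the slides. Of the 5 slides, which hold up to 8 arrays each, slide 1 had 3 of them among its 5 parental arrays and slide 2 had 3 among 6, and the 13 parental arrays of slides 3 to 5 had 0. On slide 2 all 3 Large White arrays and none of the 3 Creole arrays were of this set. Within slides, ND2-899 was above the midpoint by 1.73, 1.95, 2.74 and 2.78 on slides 1 to 4, and slide 5 held no F1 array. In a fit of slides 1 and 2 alone the difference was 1.76, and in one of slides 3 to 5 alone 2.95. The part of slide in this pattern was not tested.

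**Figure D4:**
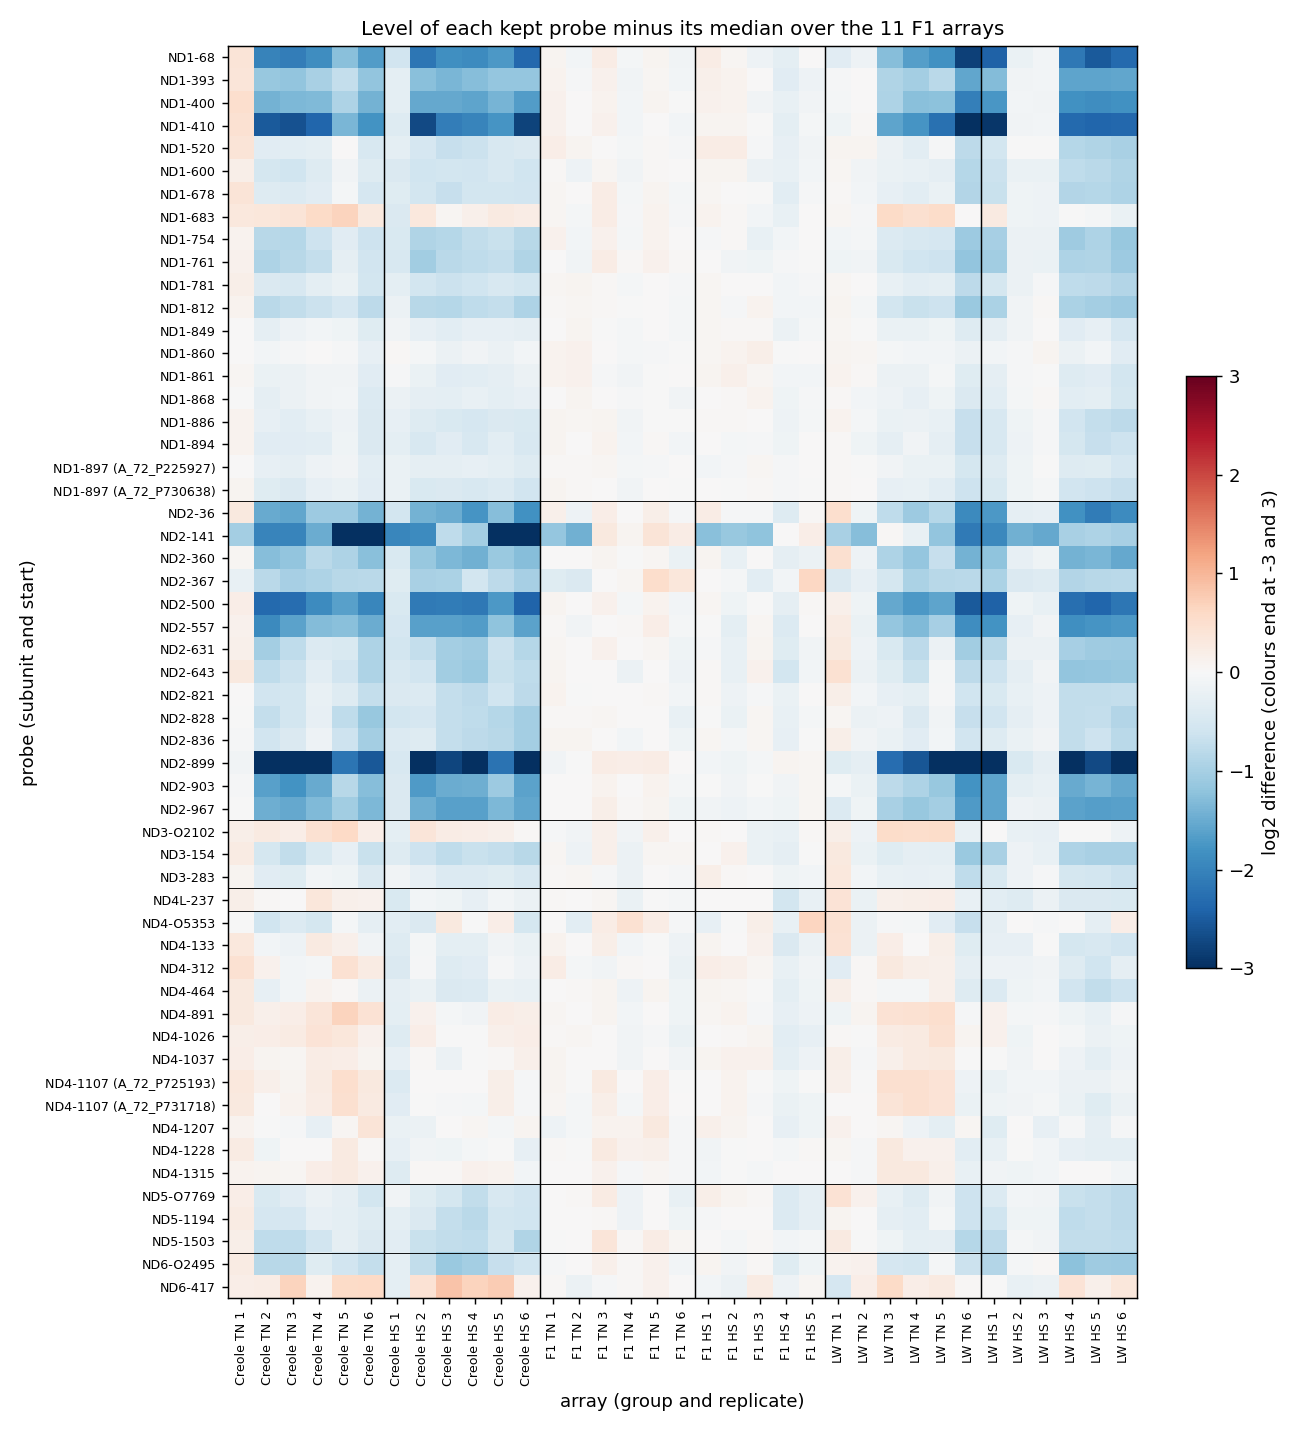
Level of each of the 55 kept probes (rows, by subunit and start) on each of the 35 arrays (columns, by group and replicate) minus the median of that probe over the 11 F1 arrays (colour, log2, blue below and red above the F1 median, ending at -3 and 3). Most parental columns are blue in the ND1 rows that start between 68 and 410 and in many ND2 rows. In most of these rows the exceptions are Creole TN 1, Creole HS 1, Large White (LW) TN 1 and 2 and LW HS 2 and 3. The other ND1 rows are paler, and the rows of ND4 and ND4L stay pale throughout.

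The response of the subunits to heat across breeds was taken from the HS and TN arrays of the 3 breeds together. All 15 of the members that passed the threshold were lower in HS (15 of 55, 27.3%), beside 16% of all kept probes in either direction and 8.3% lower. The probes that fell were 9 of 12 for ND4, the ND4L probe, 2 of 20 for ND1, and 1 each of 14 for ND2, 3 for ND3 and 3 for ND5, while neither ND6 probe passed. Changes were small, with a median of -0.20 over the members against -0.02 over all kept probes, and 54 of 55 estimates were below 0, beside 56.1% of all kept probes. Without the threshold on adjusted values, 31 members had an unadjusted p under 0.05, beside 30.7% of all kept probes.

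ND4L-237, from the small subunit encoded just before ND4, had the lowest adjusted p of the members and fell by 0.31 (SE 0.06, limma, Benjamini-Hochberg adjusted p = 0.00104), a fold of 0.807. Its HS arrays ran from 15.46 to 15.85 in Creole and from 15.47 to 15.75 in Large White, and read 15.93, 15.93, 15.95, 15.38 and 15.71 in F1, where TN arrays ran from 15.72 to 15.97. The F1 ranges thus overlapped, and 3 of the 5 F1 HS arrays lay near the top of the F1 TN range. The HS mean of ND4L-237 was below the TN mean on each of slides 1 to 4, with differences from -0.42 to -0.20. Breeds were not balanced between HS and TN on these slides, so the differences also hold breed. Slide 5 held 1 Creole HS and 2 Large White TN arrays, so that breed and temperature cannot be told apart there.

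ND4, an antiporter-like subunit, fell across most of its transcript. The change was -0.26 for ND4-133 (SE 0.07, adjusted p = 0.0108), -0.24 for ND4-312 (0.0268), -0.25 for ND4-464 (0.00926), -0.23 for ND4-891 (0.0152), -0.17 for ND4-1026 (0.0278), -0.15 for ND4-1037 (0.0334), -0.26 and -0.25 for the ND4-1107 probes (0.00347 and 0.00423) and -0.19 for ND4-1228 (0.00733). In the first of the ND4-1107 probes the lowest, median and highest arrays were at 17.02, 17.21 and 17.44 in Creole TN and at 16.53, 16.95 and 17.12 in Creole HS, and at 16.78, 17.22 and 17.43 in Large White TN and at 16.74, 16.81 and 16.86 in Large White HS. Its parental TN and HS ranges overlapped, but in Large White HS all 6 arrays lay below the TN median. ND4-1315 (-0.12, adjusted p = 0.0622), ND4-1207 (-0.10) and ND4-O5353 (0.08) did not pass, and the latter 2 were dim probes, with means of 5.68 and 6.70.

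Among the other subunits the called probes were of the same size. The change was -0.25 in ND1-683 and in ND1-678 (adjusted p = 0.0129 and 0.0395), -0.21 in ND2-821 (0.0394) and in ND3-O2102 (0.0349), and -0.24 in ND5-1194 (0.0328). Most ND1 and ND2 probes did not pass, and their estimates ran from -0.25 to -0.02 in ND1 and from -0.36 to -0.03 in ND2. In ND2-899 the SE was 0.37 and the change -0.07, and in ND1-410 the SE was 0.30 and the change -0.18, so a change of the size seen in ND4 was not detectable there. ND1-860, which had the smallest SE of the members (0.04), changed by -0.02 (adjusted p = 0.784). It was also the brightest member, with a mean of 18.25, and the part of brightness in its small change was not tested. ND6-O2495 changed by -0.28 (SE 0.11, adjusted p = 0.0908) and ND6-417 by -0.01 (SE 0.09).

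The number of calls depended on scaling and on slides. With array brightness as a covariate 2 members were called, with the scaling to spike-in controls 2, without scaling 1 and with 75th percentile scaling 32, all of them lower in HS, and ND4L-237 was called in each. Without the array Large White TN 6 the count was 23. On slides 1 and 2 alone (16 arrays) 0 members were called and 3 had an unadjusted p under 0.05, and on slides 3 to 5 alone (19 arrays) 26 were called, with median changes of -0.15 and -0.28. Within slide 2 the median change was 0.01, with 23 of 55 members below 0, against -0.18, -0.46 and -0.28 on slides 1, 3 and 4. These within-slide values are plain means of 4 HS and 4 TN arrays, with breeds not balanced between them. Slide 2 held 2 Large White HS arrays and 1 Large White TN array, and slides 3 and 4 each held 1 F1 HS and 2 F1 TN arrays. Breed and temperature are thus mixed in them, and a heat response that differs between slides cannot be read from them.

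**Figure D5:**
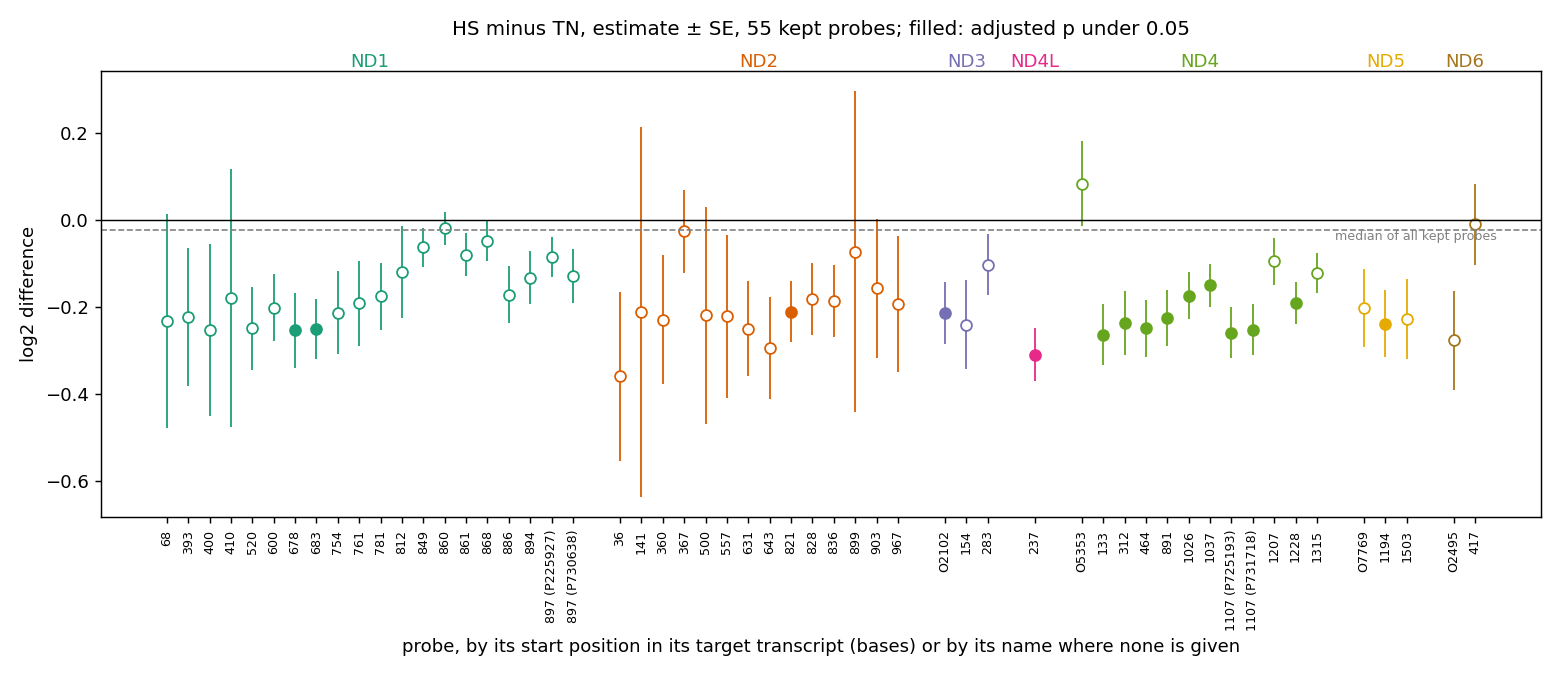
Change from TN to HS (vertical axis, log2; limma estimate with SE as bars) for the 55 kept probes by subunit and start (horizontal axis), filled where the adjusted p was under 0.05 and open otherwise; the dashed line is the median of all kept probes, -0.02. The filled points are 9 of the 12 ND4 probes, the ND4L probe at -0.31 and 5 probes of ND1, ND2, ND3 and ND5, and the bars are widest in ND2-141 and ND2-899.

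Within breeds the response was weighed with 1 mean per group. In Creole the median change of the members was -0.22 and 1 was called, ND4-312 (-0.43, SE 0.12, adjusted p = 0.0475), beside 1.91% of all kept probes. At an unadjusted p under 0.05 there were 15 members in Creole and 21.5% of all kept probes. The ND4-312 arrays ran from 15.15 to 15.71 in Creole TN and from 14.81 to 15.21 in Creole HS, so the ranges overlapped, and the call was lost in 23 of the 35 fits that left out 1 array. In Large White the median was -0.29 and limma called 0 members (8 without the array Large White TN 6), with 25 at an unadjusted p under 0.05 (16.6% of all kept probes) and the lowest adjusted p at 0.0557 for ND4L-237 (-0.45, SE 0.10), beside 0.00482% of all kept probes. In F1 the median was -0.07 and limma called 0 members, with 0 at an unadjusted p under 0.05 (8.3% of all kept probes), again beside 0.00482%. These fits took 1 spread per probe over all 6 groups. In 33 of 55 members the parental SD was at least 2 times the F1 SD. For those members the F1 test carried the parental spread, so 0 calls do not show that F1 did not respond. ND4L-237 changed by -0.34 in Creole (SE 0.10, adjusted p = 0.0616) and by -0.12 in F1 (SE 0.10, adjusted p = 0.858).

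The breeds were not shown to differ in that response. The tests below took the same spread, shared by all groups. The interaction of breed and temperature was called in 0 members by limma's moderated F-test, with 1 at an unadjusted p under 0.05 (ND4-312, beside 3.84% of all kept probes) and the lowest adjusted p at 0.963, and in 0 of all kept probes. The departure of F1 from the midpoint was called different between HS and TN in 0 members, with 4 at an unadjusted p under 0.05 (5.48% of all kept probes) and the lowest adjusted p at 0.804, and in 0 of all kept probes. Its median over the members was 0.19. In ND4L-237 the departure changed by 0.28 (SE 0.13, adjusted p = 0.804), and in ND2-899 by -0.07 (SE 0.82).

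Creole and Large White were compared next, as the contrast that leaves F1 out. Limma called 0 of 55 members, beside 3.64% of all kept probes, with 5 members and 15.4% of all kept probes at an unadjusted p under 0.05. The median difference was -0.02, but all 14 ND2 probes were below 0 in Creole, with a median of -0.23. The 5 members at an unadjusted p under 0.05 were ND2-821, ND2-828, ND2-836 (-0.25, SE 0.10, adjusted p = 0.173), ND2-141 and ND6-417. The latter was higher in Creole by 0.30 (SE 0.11, adjusted p = 0.142). ND4L-237 differed by 0.11 (SE 0.07) and ND4-1037 by 0.04 (SE 0.06).

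ND2-141, a probe matched by its description, had the widest range of the breed contrast, with a Creole minus Large White difference of -1.71 (SE 0.51, limma adjusted p = 0.0527). Its sequence is not a plain stretch of ND2. The earlier part holds the reverse complement of the end of ND2-836, and the later part matches the middle of ND2-836 as printed. It is counted with the ND2 probes throughout. Of the 12 Creole arrays, 4 stood at 5.90 (TN 5), 5.89 (TN 6), 5.94 (HS 5) and 5.58 (HS 6), and the other 8 between 9.36 and 10.57. Large White arrays ran from 9.22 to 11.38, so those 8 lay within the Large White range and the 4 below it. These 4 arrays lie on slides 3, 4 and 5. The Creole minus Large White difference of ND2-141 was -0.35 on slides 1 and 2 alone and -3.20 on slides 3 to 5 alone, and it passed the threshold in 6 of 17 alternatives and in 8 of the 35 fits that left out 1 array. The F1 arrays of ND2-141 also differed between slides, with 9.90 to 10.19 on slides 1 and 2 and 11.34 to 11.72 on slides 3 and 4, and the part of slide in this probe was not tested.

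Many nuclear-encoded partners of these subunits were also lower in HS. Genes were followed by their brightest kept probe, and among 9549 genes so measured 935 were lower and 807 higher in HS, with a median of -0.02. Of 7 core subunits of the peripheral arm 6 were measured and 5 were lower, with a median of -0.24: NDUFS1, which carries iron-sulphur clusters, changed by -0.37 (SE 0.07, adjusted p = 0.00139), and NDUFV1, which binds NADH, by -0.40 (SE 0.10, adjusted p = 0.00599). NDUFS8 did not pass (-0.20, adjusted p = 0.0512). Of 30 supernumerary subunits 27 were measured, 14 were lower and 0 higher, with a median of -0.21, among them NDUFB11 (-0.24, SE 0.05) and NDUFA9 (-0.31, SE 0.09). The medians of both lists against the F1 midpoint were -0.05 and -0.02, and none of their probes had the 6 arrays above as its highest parental arrays.

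Genes that make and handle mitochondrial transcripts, and assembly factors of complex I, were followed in the same way. Of the factors of mtDNA transcription and replication 7 of 18 were measured, 2 of them lower and 1 higher in HS: TFAM, which packages and activates mtDNA, changed by -0.21 (SE 0.04, adjusted p = 0.000982), the polymerase POLG by -0.16 (SE 0.05) and PRIMPOL by 0.22 (SE 0.07). Of 21 genes of mitochondrial RNA processing and stability 14 were measured and 2 were lower, TBRG4 (-0.33, SE 0.06) and GRSF1 (-0.24, SE 0.05), while LRPPRC and SLIRP, a pair that stabilises mitochondrial mRNA, were not called (-0.17 and -0.19). Of 17 assembly factors of complex I 8 were measured and 2 were lower, NDUFAF4 (-0.32, SE 0.06) and ACAD9 (-0.24, SE 0.04). ELAC2, the enzyme that cuts the 3′ ends of mitochondrial tRNA, was 0.63 above the midpoint in F1 (SE 0.12), the largest such value of the RNA processing list, whose median was -0.04.

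Markers of other cell types moved with temperature beside the members. Of 9 measured leukocyte markers 4 were higher in HS (CD74, CSF1R, LYZ and TYROBP), with a list median of 0.70, and of 4 blood cell markers 2 were lower, HBB (-1.21, SE 0.22) and AHSP (-0.44, SE 0.15). Of 8 connective tissue markers 2 were higher (COL3A1 and LUM), of 6 endothelial markers 1 was lower (VWF), and 0 of 6 adipocyte and 0 of 6 nerve markers were called by limma. Fast fibre genes were lower in 4 of 12 and slow fibre genes in 1 of 10, with 1 higher, and of 13 skeletal muscle markers 5 were lower and 1, DES, higher. Against the F1 midpoint the medians were -0.31 for adipocyte, 0.13 for leukocyte, -0.14 for connective tissue and -0.12 for nerve markers. The part of cell composition in the results of the members was not tested.

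The other protein genes of mtDNA, those of cytochrome b, cytochrome c oxidase and ATP synthase, gave a comparison from the same molecule. Their 76 probes were all kept. In HS 6 were lower and 0 higher, 4 of 21 for CYTB, 1 of 5 for COX2 and the ATP8 probe (-0.30), with a median of -0.06. That is 7.89% of them, near the 8.3% of all kept probes that were lower, and 16% were called in either direction. Limma called 0 of them between Creole and Large White, beside 3.64% of all kept probes. At an unadjusted p under 0.05 there were 6 of the 76, beside 15.4% of all kept probes. Against the F1 midpoint they ran from -0.04 to 1.91, with the highest in COX2 (1.91) and COX1 (1.87). The 6 parental arrays that led ND2-899 also led 13 of the 76 (17.1%), 6 of CYTB, 4 of COX3, 2 of COX1 and 1 of COX2, and 0 of 10 for ATP6. Outside mtDNA genes this held for 4 of 41351 probes (0.00967%).

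The genes whose brightest probe followed the mean of the 7 centred lead probes most closely over the 35 arrays, among 9536 with a symbol and not encoded by mtDNA, were ESYT3 (Pearson r = 0.81), ITGB7 (0.79), EXOC5 (0.77), KPNA4 (0.76) and MAF1 (0.75). The lead probes followed their own mean unevenly, with r from 0.49 (ND4-1037) and 0.62 (ND4L-237) to 0.96 (ND5-O7769). The mean thus stands less for ND4 and ND4L than for the other subunits. The arrays share their scaling, and these values are a description. None of the 5 had the same 6 arrays as its highest parental arrays.

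The 84 probes set aside gave other values than the members. Of these, 46 were kept. In HS 1 was lower and 4 higher (10.9%, beside 16% of all kept probes), with a median of 0.02. Between Creole and Large White 1 was called (2.17%, beside 3.64% of all kept probes), and the median against the F1 midpoint was 0.01. Counted with the members they would raise the number of calls in HS from 15 to 20 and lower the median F1 difference from 0.37 to 0.13.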

How the data were processed

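Total RNA from longissimus dorsi was labelled with Cy3 and hybridised to 1-colour Agilent porcine arrays, and the deposited scanner files (Agilent Feature Extraction 10.10.1.1) give spot intensities per array. The authors also deposited a value table of quantile-normalised log2 intensities with 40649 probes, 53 of them members, in which each of the 35 columns was closest to its own array (lowest r 0.999978). It served as an alternative, and 0 columns of values lacked a sample.

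Here the median pixel intensities were quantile-normalised without background subtraction and taken to log2, and values at 105 outlier-flagged spots were then set to missing. The filter on dim probes required 75% of a group's arrays to be well above background, in any group. Groups came from the labels. Models were run in limma 3.58.1 (R 4.3.3) on all 35 arrays, with breed and temperature as fixed terms, or 1 mean per group for responses within breeds and the interaction, and p-values were Benjamini-Hochberg adjusted over all kept probes at 0.05. The study methods add pen, slaughter day, father and mother as random terms, which are not in the labels used here, so p-values measure the spread between these samples, littermates included. Each fit took 1 spread per probe over all groups, although F1 and parental arrays differed in spread in many members. For these members an SE is too wide for F1 and too narrow for the parental groups. Quantile scaling assumes alike intensity distributions on all arrays, and the number of arrays limits the precision. The fit was tested on simulated data with 200 changed probes and a change of 1 log2 unit. That change is larger than the heat changes of the members, so nothing is drawn from it about changes of their size.

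The members and gene lists were chosen with earlier results of these data known. Each subunit was represented by its brightest kept probe, and the 5 non-members most like the mean of these were named by Pearson r. Probes were compared by alignment of their sequences, with at least 30 identical bases and 85% identity. Alternatives were other scalings, background corrections, filters, covariates, a slide block, and leaving out each array.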

Additional observations from a re-analysis of the deposited data

Results flagged for a closer look

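In groups of 5 or 6 arrays, 78 combinations of group and probe were examined for 1 array far from the others, and 5 stood out by Dixon's criterion (chance gives about 1 in 20). ND1-393 was highest in Creole TN 1 at 16.92, with the next array at 15.83, and in Creole HS 1 at 16.27, with the next at 15.39, and both arrays are among the 6 that led ND2-899. ND1-683 was lowest in Creole HS 1 at 16.11, with the next at 16.60. ND1-678 was lowest in F1 HS 4 at 15.94, with the next at 16.22. ND1-860 was lowest in Creole TN 6 at 18.04, with the next at 18.21.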

How the results depend on the processing

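The number of members called lower in HS, 15 as reported, was 32 with 75th percentile scaling, 23 with slide as a block or with array weights, 2 with spike-in scaling, with brightness as a covariate or with 1 probe per gene (of 7), 1 without scaling, 26 on slides 3 to 5 alone, 0 on slides 1 and 2 alone, and 10 to 23 when 1 array was left out. Between Creole and Large White, 0 as reported, it was 1 with median scaling, spike-in scaling, array weights, the other-species probes added or slides 3 to 5 alone, 2 with the slide block, 3 with brightness, and 0 to 2 when 1 array was left out (2 without Creole HS 1). The 1 call in Creole became 0 with 75th percentile, median, spike-in or no scaling, no filter, the slide block, brightness or 1 probe per gene, 2 with the other-species probes, and 0 to 2 when 1 array was left out. The 0 calls in Large White became 2 with the slide block, 4 with array weights, and 0 to 8 when 1 array was left out. Calls in F1, of the interaction and of the F1 departure between temperatures were 0 in each alternative run and 0 to 0 when 1 array was left out. The median change in HS ran from -0.24 to -0.15, and the median F1 difference from 0.33 to 0.40, when 1 array was left out. Over the other alternatives the median change in HS, -0.20 as reported, ran from -0.32 (75th percentile scaling) to -0.07 (brightness), and the median F1 difference, 0.37 as reported, from 0.13 (other-species probes added) to 0.49 (HS arrays alone). With brightness as a covariate ND1-860 (0.018) and ND3-283 (0.0051) turned positive in HS. ND4L-237 was called in each alternative but slides 1 and 2 alone (-0.28). The causes were not tested. Slide fits and the other-species probes were added after the data were seen. No paired analysis was possible because the labels give no replicate numbers that link samples across groups.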
